A study of Homo sapiens with 8 samples.

Results

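Expression was examined for 10 genes that carry Wnt feedback and Wnt antagonism: the ligand WNT7B, the secreted antagonist DKK1, the R-spondin receptors LGR4 and LGR5, the membrane ubiquitin ligases RNF43 and ZNRF3, the intracellular inhibitors AXIN2 and NKD1, and the nuclear factors TCF7 and LEF1. They are the rows of the deposited gene table whose symbol is one of these 10 names, and each name matched 1 of the 58870 rows. Expression was measured by RNA sequencing in 8 libraries of CFPAC-1, a widely used cell line from a human pancreatic ductal adenocarcinoma. The control group carried an empty vector (n = 4) and the other group carried an ADRA2A transgene (n = 4). ADRA2A encodes the alpha-2A adrenergic receptor, which couples mainly to Gi proteins, and the series title addresses whether it acts against the basal-like or squamous form of this cancer. Neither group was treated. Both were cultured for 72 h in IMDM with 10% fetal bovine serum and 1% penicillin-streptomycin. The transgene's promoter, and whether a group is 1 clone or a pool, are not given in the sources used here. The labels do not say that the 4 libraries of a group came from separate cultures, so the p-values below measure only the spread between these libraries, which may be technical.

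In canonical Wnt signalling, a Wnt ligand bound to a Frizzled receptor and an LRP co-receptor stops the AXIN-APC-GSK3 complex from marking beta-catenin for destruction. Beta-catenin then enters the nucleus and works with TCF/LEF factors at target genes. Several of those targets act back on the pathway: AXIN2 and NKD1 restrain it inside the cell, RNF43 and ZNRF3 remove Frizzled from the surface, DKK1 blocks the LRP co-receptors, and the LGR receptors bind R-spondins, which relieve the removal of Frizzled. In pancreatic cancer, RNF43 is known as a tumour suppressor gene, and WNT7B as a ligand made by some tumours.

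The libraries held between 14427040 and 17528910 counts. ADRA2A had 0 counts in every empty vector library and between 112 and 172 in the ADRA2A libraries, as labelled. The first principal component, with 57.2% of the variance, separated the groups. On the second, with 8.6%, empty vector replicate 3 (-16.0) and ADRA2A replicate 2 (-19.1) lay away from the other libraries (-2.6 to 11.5). Ductal epithelial markers were abundant in both groups, at a summed 12000 to 12600 counts-per-million (CPM) with the empty vector and 11900 to 13000 CPM with ADRA2A, although CFTR had only 4 to 20 counts. Of the 7 ductal markers tested, 3 were higher with ADRA2A (MUC1, KRT19 and EPCAM) and 3 were lower (KRT7, CDH1 and KRT18), with MUC1 going from 278.6 to 483 CPM and KRT7 from 781.4 to 578.5 CPM. Of the blood markers, CD3E had 0 counts throughout and PTPRC had at most 4. CD68 had 1345 to 1578 counts with the empty vector and 1559 to 1996 with ADRA2A and passed the test as higher, while CD14 had 18 to 30 and 25 to 37 counts and did not pass. Endothelial markers summed to 2.05 to 2.71 and 2.64 to 3.35 CPM, with PECAM1 higher (9 to 18 against 31 to 45 counts) and KDR lower (18 to 21 against 5 to 10 counts) with ADRA2A. Fibroblast markers summed to 2.04 to 2.49 and 1.11 to 1.66 CPM. The part of these marker differences in the results was not tested.

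Of the 10 genes, 7 had enough counts to be tested, each with at least 19 counts in every library. With ADRA2A, 2 of them rose, RNF43 and LGR4, and 4 fell, WNT7B, DKK1, AXIN2 and TCF7. ZNRF3 did not pass the threshold, which was an adjusted p under 0.05 in edgeR's quasi-likelihood test over all 14785 genes tested. The background was high: 42.7% of all genes tested passed that threshold, 21.6% higher and 21.1% lower with ADRA2A. For 5 of the 7 genes, every library of one group lay above every library of the other, against 39.2% of all genes tested. The median log2 fold change (ADRA2A over empty vector) of the 7 was -0.14, and their median absolute change was 0.35, against 0.18 over all genes tested. Among the 6 genes that passed, 3 changed by less than 0.5 on the log2 scale, against 4542 of the 6314 that passed over all genes tested. LGR5, NKD1 and LEF1 were at or close to 0 counts and are described by their counts.

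For 4 of the genes that changed, sequence upstream of a start in the RefSeq promoter table (GRCh38.p14) is given, limited to bases outside the coding and untranslated exons of the GENCODE annotation. The RNF43 stretch is a shortened window: the 61 bases nearest its RefSeq start lie in such an exon and were removed. The window of another RNF43 start is not shown, nor is that of a TCF7 start upstream of the internal start given here. These stretches are given to show the sequence context of genes that rose (LGR4 and RNF43) and genes that fell (DKK1 and TCF7). They are in lower case, 5′ to 3′ on the gene's strand. Capitals mark matches to CTTTGAT or CTTTGAA, the only forms of the TCF/LEF core sequence that were searched.
DKK1, chr10:52314031-52314280, plus strand: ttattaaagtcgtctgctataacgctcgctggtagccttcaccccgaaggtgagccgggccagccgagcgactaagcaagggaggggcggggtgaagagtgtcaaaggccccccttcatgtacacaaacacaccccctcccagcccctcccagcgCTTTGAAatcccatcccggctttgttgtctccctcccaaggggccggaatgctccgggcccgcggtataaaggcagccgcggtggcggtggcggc
LGR4, chr11:27472791-27473040, minus strand: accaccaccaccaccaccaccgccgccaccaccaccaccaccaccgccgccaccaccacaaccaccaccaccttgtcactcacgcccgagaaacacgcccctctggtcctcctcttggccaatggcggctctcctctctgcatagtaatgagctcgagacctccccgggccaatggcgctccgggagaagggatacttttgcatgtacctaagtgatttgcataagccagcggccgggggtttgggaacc
RNF43, chr17:58417596-58417784, minus strand: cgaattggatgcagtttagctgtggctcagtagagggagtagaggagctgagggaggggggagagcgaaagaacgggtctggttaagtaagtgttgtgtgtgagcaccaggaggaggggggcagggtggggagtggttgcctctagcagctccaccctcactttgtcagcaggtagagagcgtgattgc
TCF7, an internal start, chr5:134123368-134123617, plus strand: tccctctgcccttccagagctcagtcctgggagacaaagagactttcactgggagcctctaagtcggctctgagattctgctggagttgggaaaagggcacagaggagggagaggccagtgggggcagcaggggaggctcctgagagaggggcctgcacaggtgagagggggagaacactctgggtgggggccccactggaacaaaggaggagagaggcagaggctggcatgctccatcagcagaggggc

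The table matched 5 of the 10 genes in 7 windows, each running from 250 bases before to 50 bases after a start. AXIN2, NKD1, ZNRF3, LGR5 and WNT7B were not matched. The core sequences CTTTGAT and CTTTGAA were searched on both strands in each window. CTTTGAT occurred in 2.62%, CTTTGAA in 4.43%, and either of them in 6.86% of the 35116 windows in the table. Among the 7 windows of the Wnt genes, DKK1 alone held a match to either, CTTTGAA on the plus strand beginning 95 bases upstream of the start. Other forms of the core were not searched, so a window without a match may still hold one. A match describes the letters in the window and is not evidence of a bound site.

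WNT7B (chr22:45920366-45977162), the WNT gene with the highest level per kilobase in these libraries, was lower with ADRA2A. Its levels in the empty vector libraries were 239.4, 245.8, 253.0 and 230.4 CPM after TMM scaling, which adjusts library sizes by a trimmed mean. The ADRA2A libraries held 194.3, 189.7, 190.5 and 183.5 CPM. Every ADRA2A library lay below every empty vector library. In these bulk samples, fewer cells that make a transcript and less of it per cell cannot be told apart. The mean fell from 242.1 ± 9.61 to 189.5 ± 4.49 CPM (± SD over 4 libraries per group), or -0.35 ± 0.037 (SE) in log2 fold change, at an edgeR adjusted p of 1.986e-07. Levels of different genes were compared in CPM per kilobase of canonical transcript, an annotated length that may differ from that of the transcripts expressed. On that scale WNT7B went from 61.3 to 48.0. It supplied 76.1% of the summed level of the 19 WNT genes with the empty vector (75.3% to 77.3%) and 72.9% with ADRA2A (72.6% to 73.6%). The summed WNT level per kilobase went from 80.6 ± 2.76 to 65.8 ± 1.89 (SD, n = 4 each), and no ADRA2A library reached the empty vector range. WNT10A was next in level, at 14.5 and 12.6 CPM per kilobase.

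DKK1 (chr10:52314281-52318042), the secreted antagonist that binds LRP5 and LRP6, was the most abundant of the 10 genes per kilobase. It stood at 119.4 CPM per kilobase with the empty vector and 108.4 with ADRA2A. The empty vector libraries held 219.5, 202.1, 229.8 and 210.9 CPM, and the ADRA2A libraries held 195.2, 203.9, 205.5 and 178.2 CPM. The groups overlapped: ADRA2A replicates 2 and 3 exceeded empty vector replicate 2. The mean went from 215.6 ± 11.9 to 195.7 ± 12.5 CPM (± SD over 4 libraries per group), or -0.14 ± 0.047 (SE) in log2 fold change, at an edgeR adjusted p of 0.02058. The call was lost without empty vector replicate 3 (log2 fold change -0.11, edgeR adjusted p = 0.08085) and without ADRA2A replicate 4 (-0.10, edgeR adjusted p = 0.07803). DKK1 supplied 91.1% and 90.5% of the summed level of the 4 DKK genes in the respective groups. The level of WNT7B relative to DKK1, per kilobase, was 0.514 ± 0.028 with the empty vector and 0.444 ± 0.023 with ADRA2A (SD, n = 4 each), and its highest ADRA2A value, 0.471, lay below the lowest empty vector value, 0.499.

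**Figure D1:**
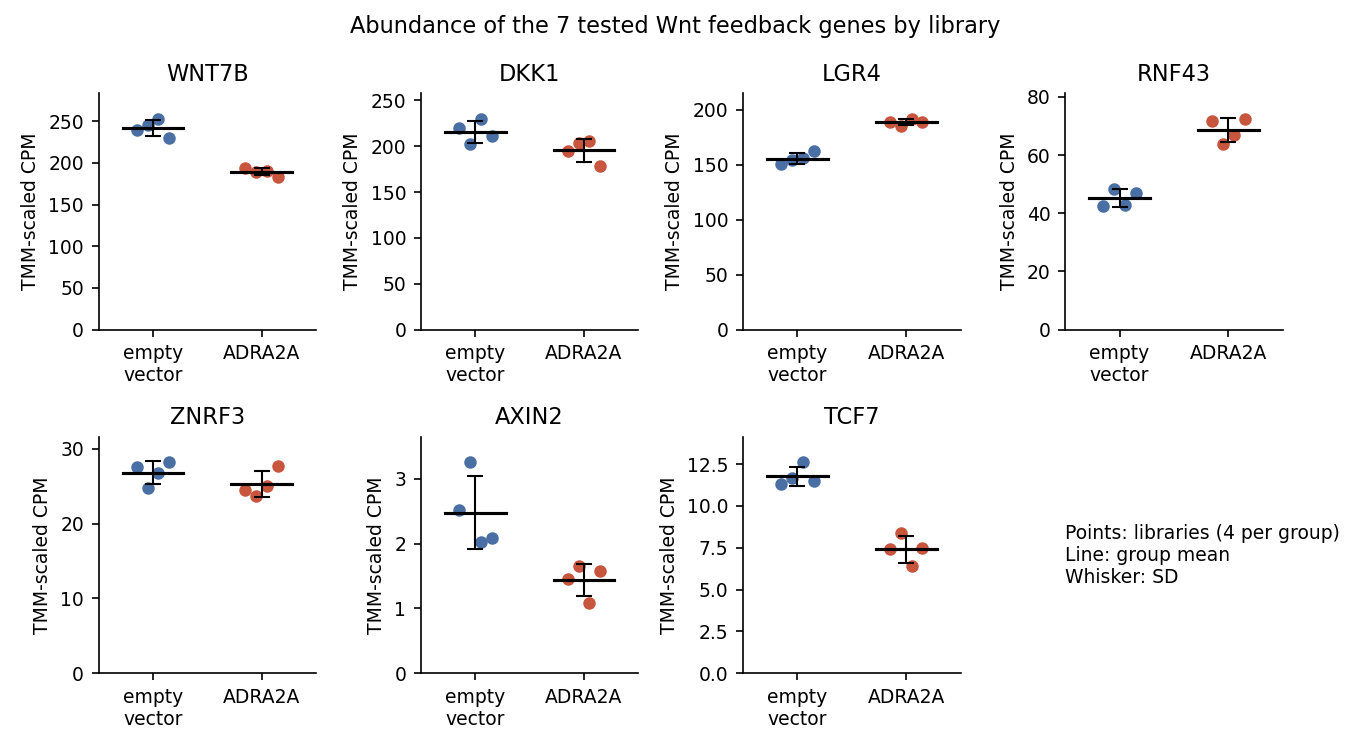
TMM-scaled CPM (linear y axis from 0, with its own scale in each panel) of the 7 tested genes in the 8 libraries, with points for libraries, a line for the group mean and a whisker for the SD over 4 libraries. The groups are separate for WNT7B, LGR4, RNF43, AXIN2 and TCF7 and overlap for DKK1 and ZNRF3.

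LGR4 (chr11:27365961-27472790), a receptor for R-spondins, rose with ADRA2A. Levels were 150.2, 154.0, 155.6 and 162.1 CPM in the empty vector libraries, and 188.9, 185.2, 191.6 and 188.4 CPM in the ADRA2A libraries. All ADRA2A libraries were higher than all empty vector libraries. The mean went from 155.5 ± 4.94 to 188.5 ± 2.64 CPM (± SD over 4 libraries per group), or 0.28 ± 0.036 (SE) in log2 fold change, at an edgeR adjusted p of 3.2e-06. LGR5 (chr12:71439798-71586310), a stem cell marker of the intestine and a receptor for the same ligands, had 1 count in empty vector replicate 1 and 0 in the other 7 libraries. A count of 0 over the ADRA2A libraries, which hold 62914584 counts, allows up to 3 counts, or 0.0477 CPM. LGR4 made up most of the summed LGR4, LGR5 and LGR6 level per kilobase, at 95.0% with the empty vector and 97.9% with ADRA2A. LGR6 itself went from 5.70 to 2.84 CPM (-1.02 ± 0.220 SE in log2 fold change, edgeR adjusted p = 0.000881).

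RNF43 (chr17:58353676-58417595), a ubiquitin ligase that removes Frizzled from the membrane, rose with ADRA2A. The empty vector libraries held 42.5, 48.4, 42.9 and 47.1 CPM and the ADRA2A libraries 71.7, 63.7, 66.8 and 72.5 CPM. The lowest ADRA2A library lay well above the highest empty vector library. The mean went from 45.2 ± 2.97 to 68.7 ± 4.16 CPM (SD, n = 4 each), which is a fitted 1.52-fold increase (0.60 ± 0.056 SE in log2 fold change, edgeR adjusted p = 4.022e-08). A readthrough gene, ENSG00000285897, shares 4326 exon bases with RNF43 on the same strand, and the counting divides reads between them. It held 104.2 of their counts over the 8 libraries, against 7210.2 for RNF43, and the sum of both gave a log2 fold change of 0.60 (edgeR adjusted p = 3.343e-08).

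ZNRF3 (chr22:28883572-29057488), the paralog of RNF43 with the same role, gave no call. Its levels were 27.6, 24.8, 26.7 and 28.2 CPM with the empty vector and 24.6, 23.8, 25.1 and 27.8 CPM with ADRA2A, and the groups overlapped. The means were 26.8 ± 1.51 and 25.3 ± 1.74 CPM (± SD over 4 libraries per group), or -0.09 ± 0.068 (SE) in log2 fold change, at an edgeR adjusted p of 0.3342. Per kilobase, RNF43 stood at 2.34, 2.97, 2.44 and 2.54 times ZNRF3 in the empty vector libraries and at 4.43, 4.07, 4.05 and 3.97 times in the ADRA2A libraries. RNF43 made up 71.9% of the summed level of the pair with the empty vector (70.0% to 74.8%) and 80.5% with ADRA2A (79.9% to 81.6%), while that sum went from 13.9 ± 0.595 to 18.9 ± 1.11 CPM per kilobase (SD, n = 4 each). These shares describe the libraries and were not tested.

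AXIN2 (chr17:65528563-65561648), the scaffold of the destruction complex that is widely read as a Wnt target, was low throughout and lower with ADRA2A. The empty vector libraries had 43, 48, 35 and 32 counts (2.52, 3.26, 2.03 and 2.09 CPM), and the ADRA2A libraries had 21, 25, 19 and 25 counts (1.45, 1.65, 1.09 and 1.58 CPM). The highest ADRA2A library lay below the lowest empty vector library. The mean fell from 2.48 ± 0.564 to 1.44 ± 0.250 CPM (± SD over 4 libraries per group), or -0.78 ± 0.248 (SE) in log2 fold change, at an edgeR adjusted p of 0.01574. With so few counts the call rested on single libraries: it was lost without empty vector replicate 2 (log2 fold change -0.62, edgeR adjusted p = 0.06577) and without ADRA2A replicate 3 (-0.66, edgeR adjusted p = 0.05713). AXIN1, the constitutive paralog, stood at 30.1 and 27.6 CPM (edgeR adjusted p = 0.161), and AXIN2 was 6.63% of the summed AXIN level per kilobase with the empty vector and 4.36% with ADRA2A. NKD1 (chr16:50548396-50649249), which binds Dishevelled and dampens the signal, had 4, 0, 2 and 0 counts in the empty vector libraries and 4, 1, 0 and 0 in the ADRA2A libraries, so a difference was not detectable at this depth.

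TCF7 (chr5:134114681-134151865), also known as TCF1, a DNA-binding partner of beta-catenin, fell with ADRA2A. Its levels were 11.3, 11.7, 12.6 and 11.5 CPM in the empty vector libraries. The ADRA2A libraries held 7.40, 8.38, 6.41 and 7.46 CPM, all below the empty vector range. The mean fell from 11.8 ± 0.575 to 7.42 ± 0.804 CPM (± SD over 4 libraries per group), or -0.67 ± 0.104 (SE) in log2 fold change, at an edgeR adjusted p of 2.809e-05. SKP1, on the opposite strand, shares 210 exon bases with TCF7, and whether the counting used strand is not given in the sources used here. SKP1 is far more abundant and moved in the other direction, from 264.6 to 295.2 CPM (log2 fold change 0.16, edgeR adjusted p = 0.001641).

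LEF1 (chr4:108047545-108168956), another TCF/LEF factor and itself a Wnt target, had 1, 0, 9 and 3 counts in the empty vector libraries and 0 in all 4 ADRA2A libraries. Of its 13 counts, 9 came from empty vector replicate 3. LEF1 was too low to pass edgeR's count filter. Without that filter edgeR gave an adjusted p of 0.00836, and without the filter and without empty vector replicate 3 it gave 0.167. TCF7L2 carried most of the TCF/LEF level, with 82.5% of the summed level per kilobase in the empty vector group (80.8% to 83.4%) and 89.3% in the ADRA2A group (87.4% to 90.2%). The share of TCF7 went from 16.5% (15.6% to 17.8%) to 10.2% (8.8% to 12.4%), while the sum stood at 21.8 ± 0.161 and 22.2 ± 1.46 CPM per kilobase (SD, n = 4 each). TCF7L2 itself went from 73.2 ± 1.503 to 81.0 ± 6.29 CPM, with overlapping libraries (0.15 ± 0.051 SE in log2 fold change, edgeR adjusted p = 0.02553). That call was lost without empty vector replicate 3 (log2 fold change 0.13, edgeR adjusted p = 0.06671) or 4 (0.15, adjusted p = 0.05332) and without ADRA2A replicate 3 (0.14, adjusted p = 0.05191) or 4 (0.10, adjusted p = 0.1079). TCF7L1 had 2 to 12 counts a library and was not tested. CTNNB1, which encodes beta-catenin, gave no call, at 229.5 and 240.3 CPM (0.07 ± 0.037 SE in log2 fold change, edgeR adjusted p = 0.1563).

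**Figure D2:**
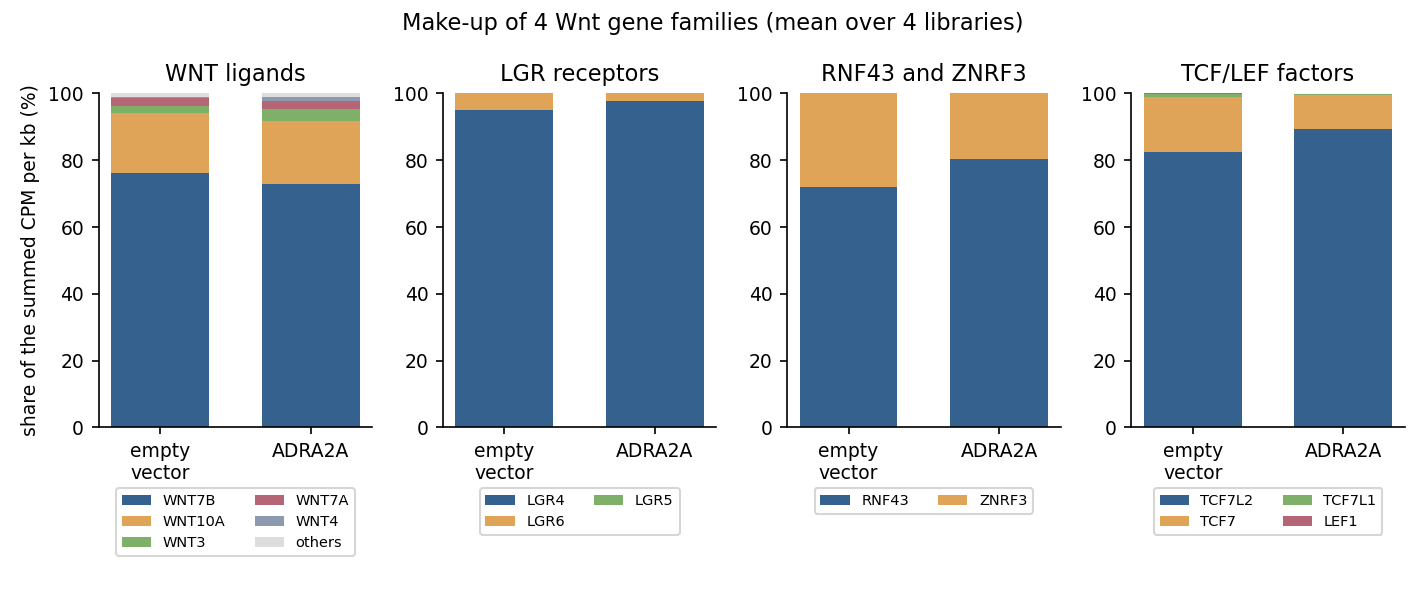
Share of the summed level per kilobase (percent, y axis) held by each gene of 4 families (WNT ligands, LGR receptors, RNF43 with ZNRF3, and TCF/LEF factors) in the empty vector and ADRA2A groups, as means over 4 libraries. The share of TCF7 within the TCF/LEF factors goes from 16.5% to 10.2%, and that of RNF43 within the ligase pair from 71.9% to 80.5%.

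In order of level per kilobase, averaged over both groups, DKK1 stood at 113.9 CPM, WNT7B at 54.7, LGR4 at 32.8, RNF43 at 12.6, ZNRF3 at 3.79, TCF7 at 2.92 and AXIN2 at 0.46. The levels of LEF1, NKD1 and LGR5 were 0.027, 0.0051 and 0.0016, at which the order among them rests on a few counts. ZNRF3 and TCF7 were neighbours in this order with 3.91 ± 0.219 and 3.58 ± 0.175 CPM per kilobase in the empty vector group (SD, n = 4 each). In the ADRA2A group they were further apart, at 3.68 ± 0.253 and 2.26 ± 0.245. Set among the genes tested that have a transcript length, DKK1 lay at percentile 96.1, WNT7B at 90.9, LGR4 at 84.4, RNF43 at 64.0, ZNRF3 at 34.0, TCF7 at 29.2 and AXIN2 at 6.3.

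In absolute log2 fold change, 7.5% of the genes tested changed more than AXIN2, 9.5% more than TCF7 and 11.2% more than RNF43. For WNT7B the share was 24.0%, for LGR4 32.3%, for DKK1 58.5% and for ZNRF3 73.5%. The genes around each Wnt gene on its chromosome were also compared, as the median log2 fold change of the 20 tested genes on each side. Those medians lay between -0.07 (WNT7B, LGR4) and 0.14 (TCF7), but some stretches leaned one way. Of the 40 neighbours of TCF7, 21 passed the threshold higher with ADRA2A and 5 lower. For RNF43 the numbers were 12 and 3, and for LGR4 7 and 13. Over all genes tested the shares were 21.6% higher and 21.1% lower. Each gene's log2 fold change minus its neighbours' median was -0.87 for AXIN2, -0.81 for TCF7, -0.28 for WNT7B, 0.51 for RNF43 and 0.35 for LGR4. Of the 40 neighbours, 1 changed as far as AXIN2 in its direction, 1 as far as RNF43, 2 as far as TCF7, 5 as far as WNT7B and 6 as far as LGR4. For DKK1 and ZNRF3 that number was 15 of 40 in each case, and the differences from the median were -0.09 and -0.03. The DKK1 difference was -0.19 with 10 genes on each side and -0.04 with 40.

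**Figure D3:**
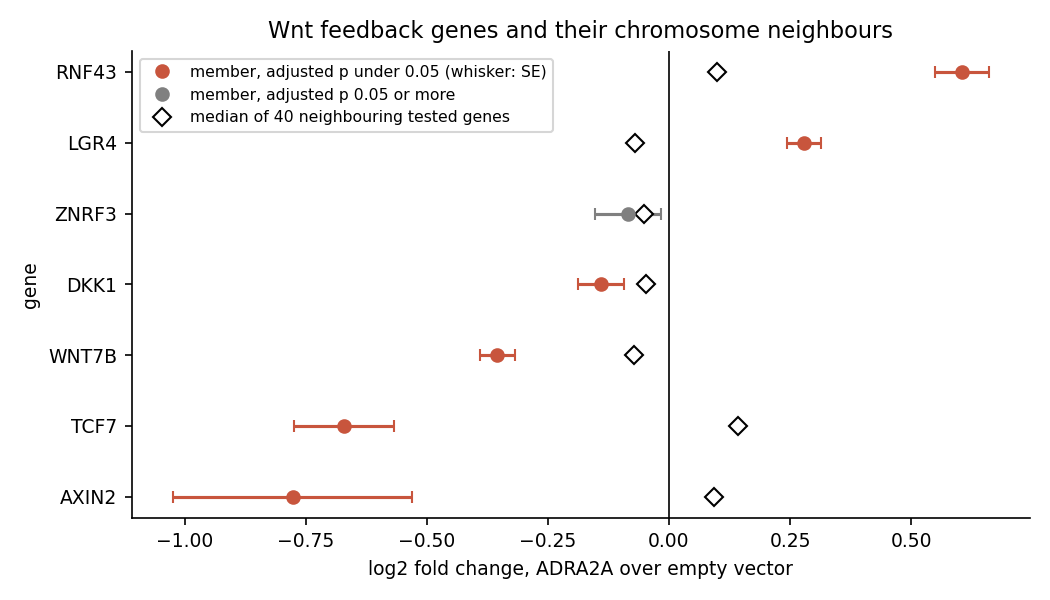
Log2 fold change of the 7 genes tested (ADRA2A over empty vector, x axis) as circles with whiskers of 1 SE, and the median of each gene's 40 chromosome neighbours as open diamonds. The value lies above 0 for RNF43 and LGR4 and below 0 for WNT7B, DKK1, ZNRF3, AXIN2 and TCF7, while the neighbour medians lie between -0.07 and 0.14.

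The rest of the pathway moved in both directions. A list of 103 other Wnt genes held 67 that could be tested, of which 21 rose, 19 fell and 27 did not pass, so 59.7% passed against 42.7% of all genes tested. Their median log2 fold change was -0.02, and their median absolute change was 0.21, against 0.18 over all genes. Of the 40 that passed, 29 changed by less than 0.5, a share close to the 4542 of 6314 over all genes tested. By role, 3 ligand and secretion genes rose and 3 fell of 8 tested, 5 receptors rose and 4 fell of 15, no antagonist rose and 2 fell of 4, 4 cytoplasmic genes rose and 2 fell of 15, 4 nuclear genes rose and 2 fell of 10, and 5 further targets rose and 6 fell of 15. The 4 R-spondins had at most 2 counts in any library.

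Of this list, 11 genes changed by at least 0.5 had a mean of 1 CPM or more where they were higher, and did not overlap between groups. Among antagonists, SFRP1, a secreted Frizzled-related protein that binds Wnt ligands, fell from 70.4 ± 5.49 to 28.5 ± 1.40 CPM (-1.30 ± 0.060 SE in log2 fold change, edgeR adjusted p = 1.37e-12). SFRP5, its paralog, fell from 2.71 to 0.472 CPM (log2 fold change -2.49, edgeR adjusted p = 5.711e-07). The summed SFRP level per kilobase went from 17.2 ± 1.43 to 6.68 ± 0.336 (SD, n = 4 each). BAMBI, a decoy receptor of TGF-beta signalling and a known Wnt target, rose from 28.1 ± 1.68 to 71.0 ± 2.21 CPM (1.34 ± 0.053 SE in log2 fold change, edgeR adjusted p = 1.633e-13). TNFRSF19, a TNF receptor family member, fell, with 46 to 75 counts a library in the empty vector group and 4 to 9 in the ADRA2A group (-3.11 ± 0.278 SE in log2 fold change, edgeR adjusted p = 2.274e-08).

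WNT4, a ligand, rose, with 8 to 15 counts a library in the empty vector group and 30 to 74 in the ADRA2A group (2.15 ± 0.294 SE in log2 fold change, edgeR adjusted p = 7.002e-06). It was a minor ligand, at 0.227% and 1.25% of the summed WNT level. FOSL1, a subunit of AP-1, and ID2, an inhibitor of helix-loop-helix factors, moved in opposite directions, FOSL1 from 253.3 to 169.8 CPM (log2 fold change -0.58, edgeR adjusted p = 1.122e-09) and ID2 from 47.4 to 69.8 CPM (0.56, edgeR adjusted p = 2.11e-08). EPHB3, an ephrin receptor, rose from 11.2 to 17.3 CPM (log2 fold change 0.63, edgeR adjusted p = 7.587e-06). PYGO1, a cofactor of beta-catenin, fell from 1.63 to 0.323 CPM (log2 fold change -2.33, edgeR adjusted p = 3.481e-05). TLE2, a Groucho co-repressor, rose from 1.55 to 3.46 CPM (log2 fold change 1.16, edgeR adjusted p = 0.000213).

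**Figure D4:**
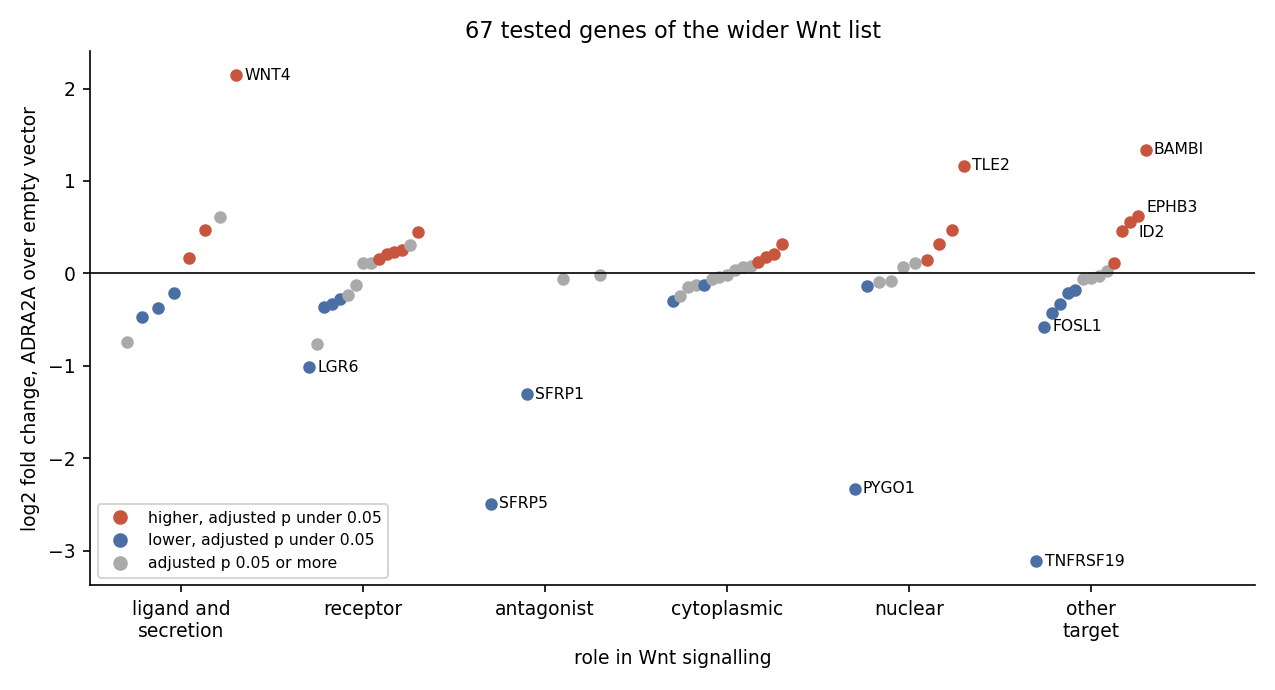
Log2 fold change (ADRA2A over empty vector) on the y axis for the 67 tested genes of the wider Wnt list, placed along the x axis by role and coloured by whether they passed the threshold higher, lower or not at all. The 21 genes that rose and 19 that fell lie on both sides of 0, and SFRP1, SFRP5, TNFRSF19, PYGO1 and LGR6 lie below -1 while BAMBI, WNT4 and TLE2 lie above 1.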

How the data were processed

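Per the labels' protocols, RNA came from TRIzol extraction and was read on an Illumina NextSeq. The authors deposited 1 table of RSEM expected counts per gene, unscaled between libraries, and per the submitters' processing notes the genome was hg38 and the tools included cutadapt, STAR, RSEM and DESeq2. The annotation release, read length and use of strand are not given in the sources used here. The expected counts were rounded to whole numbers. Of 58870 genes, 14785 passed edgeR's filterByExpr defaults. Libraries were scaled by TMM (factors 0.9938 to 1.0055) and tested with edgeR 4.0.16 (quasi-likelihood, R 4.3.3) with the group as the only term. The p-values were adjusted by Benjamini-Hochberg over every tested gene and called under 0.05, and the procedure was tested on simulated data. Positions and lengths come from GENCODE release 44 (58472 genes, 99.3%, matched by identifier), and a length is that of the canonical transcript. Promoter sequence comes from RefSeq. The 10 genes, the wider list and the rules were chosen with earlier results of these data known. Named genes of the wider list are up to 12 with the smallest p among those called, changed by at least 0.5 on the log2 scale, at 1 CPM or more where higher, and without overlap, plus CTNNB1, TCF7L1 and TCF7L2. SKP1, AXIN1 and genes in the closing section were named after their values were seen. Alternatives were DESeq2 1.42.0, limma 3.58.1 voom, RLE and upper quartile factors, 2 other filters, a replicate block and leaving out each library. The sum of RNF43 with its readthrough gene and the test of LEF1 without 1 library were added after the data were seen. A blood marker, and the summed level that holds it, is not reported here.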

Additional observations from a re-analysis of the deposited data

Results flagged for a closer look

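In 40 groups of 4 libraries, for the 7 tested Wnt feedback genes and the 13 tested genes named from the wider list, the gap between an extreme library and its nearest neighbour was set against the whole range of the group. It was unusually large in 4 groups, where chance gives about 1 in 20, or 2.0 of 40. None of the 4 concerns one of the 7 Wnt feedback genes examined. LGR5, NKD1, LEF1 and TCF7L1, which were not tested, were not examined. SFRP1 in the empty vector group had a gap of 0.878 of its range, with replicate 3 at 78.6 CPM against 66.8, 68.2 and 68.1. For FOSL1 in the same group the gap was 0.902, with replicate 3 at 271 CPM. For TLE2 it was 0.97, with replicate 3 at 1.28 CPM. CTNNB1 in the ADRA2A group had a gap of 0.843, with replicate 2 at 227 CPM, below the other 3.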

How the results depend on the processing

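RNF43, LGR4, WNT7B and TCF7 passed the threshold in all 15 alternatives, and ZNRF3 in none of them (edgeR, DESeq2 or limma adjusted p 0.1455 to 0.5831). The number of the 10 genes that passed, 6 in the report, was 5 to 7 over the alternatives and 5 to 6 when each library was left out. It was 7 with no filter, where LEF1 was added, and 5 with a filter at a mean of 50 counts, where AXIN2 was not tested. Over all genes, 6550 of 25002 passed with no filter and 5835 of 12325 with that filter, against 6314 of 14785 in the report. When each library was left out, 5703 to 6042 of all genes passed, with 14920 to 14971 tested. For the wider list the number that passed was 36 to 43, against 40 of 67 tested in the report. The 36 were of 58 tested with the filter at a mean of 50 counts. The 43 came from no filter, with 92 tested, and from limma voom, with 67 tested. With each library left out, 38 to 42 passed, with 67 to 68 tested. No direction reversed for the 7 tested Wnt feedback genes and the 13 tested genes named from the wider list, the genes whose folds were tabulated under each alternative. With upper quartile factors, 46.4% of all calls were higher with ADRA2A against 50.6%, and the median over all genes was -0.016. The replicate numbers are shared between the groups, but same-numbered libraries deviated together in no clear way (correlations -0.042 to 0.07, and 2 of 8 libraries correlated best with their own number). With the replicate block, 6 of the 10 genes (7 tested) and 41 of the wider list (67 tested) passed, with 6400 of 14785 over all genes. Of these 41, 39 were shared with the fit without the block. The difference from the neighbours moved by more than the replicate spread for LGR4 with 10 neighbours on each side (0.47), DKK1 with 10 (-0.19, and -0.04 with 40) and WNT7B with 40 (-0.33). Counts of LGR5 and NKD1 are too low for a difference to be detectable at this depth, and the call of LEF1 with no filter was lost without empty vector replicate 3 (edgeR adjusted p = 0.167). Its fitted log2 fold change was then -3.54, against -4.71 with all libraries, values that depend on the prior count.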

Other observations

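The receptor layer moved unevenly between groups. The co-receptors LRP5 and LRP6, both bound by DKK1, moved in opposite directions. LRP5 was higher with ADRA2A, from 252.7 ± 7.37 to 292.5 ± 6.78 CPM (SD, n = 4 each, log2 fold change 0.21, edgeR adjusted p = 4.705e-05). LRP6 was lower, from 43.4 ± 1.60 to 35.9 ± 2.76 CPM (-0.27, edgeR adjusted p = 0.0008208). Among Frizzled receptors, FZD7 fell from 64.0 to 50.8 CPM (edgeR adjusted p = 9.392e-06), and FZD1, FZD5 and FZD8 rose (log2 fold changes 0.25, 0.23 and 0.45). FZD2, FZD3, FZD4, FZD6 and FZD10 were tested and did not pass. Of the 15 receptors tested in the wider list, 9 passed (60%), against 42.7% of all genes tested. PORCN, which acylates Wnt ligands, fell from 48.2 to 37.2 CPM (log2 fold change -0.37, edgeR adjusted p = 5.901e-06), and WLS, which carries them to the surface, rose from 75.9 to 85.2 CPM (0.17, edgeR adjusted p = 0.003993).

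Targets often used as readouts of the pathway also moved in both directions. MYC fell from 181.3 ± 3.28 to 144.4 ± 3.43 CPM (log2 fold change -0.33, edgeR adjusted p = 3.251e-07) and CCND1 from 479.6 ± 5.67 to 356.4 ± 4.93 CPM (-0.43, edgeR adjusted p = 6.75e-10). MMP7 rose from 1355 ± 81.6 to 1858 ± 43.8 CPM (0.46, edgeR adjusted p = 4.424e-09). For MYC, CCND1 and MMP7, all libraries of one group lay above all libraries of the other, as for 39.2% of all genes tested. Of the 15 further targets tested in the wider list, 11 passed, against 42.7% of all genes tested. CD44, SOX4, BMP4 and PPARD did not pass.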
